A study of Homo sapiens with 16 samples.

Results

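Peaks that lie away from promoters and carry the canonical G-quadruplex signature were described in 9 peak lists from HEK293T, a transformed human embryonic kidney line. The members were chosen by sequence and position only. A member is an autosomal peak whose hg38 sequence holds, on either strand, at least 4 runs of 3 or more guanines separated by loops of 1 to 7 bases, and which lies over 1 kb from every start of a protein-coding transcript in GENCODE version 44. They numbered 2895 of the 40118 peaks in the series, which is 7.76% of the 37298 autosomal peaks that lie over 1 kb from a protein-coding start (called off-promoter peaks below). These 2895 signature peaks merged into 1655 separate regions. The rule used no measured enrichment, so fold and sharing between lists were free to differ. Gene setting and closeness to chromosome ends were not fixed by it, but signatures themselves are unevenly placed on the autosomes.

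Each of the 9 lists is 1 library, pooled by the authors from 4 replicates, so it has no replicate error of its own. G4 DNA-IPnat and G4 DNA-IPdenat are immunoprecipitations with the 1H6 antibody from purified genomic DNA of cells that carried no shRNA, the first on native DNA and the second after heat denaturation and snap-chilling. Both share 1 input. G4-ChIP is the conventional chromatin immunoprecipitation from fixed and sonicated chromatin. In AbC G4-ChIP, fixed cells were permeabilised, incubated with the antibody and crosslinked again before the pulldown. CTnuc, CTut and CTtr are AbC G4-ChIP lists from a stable line with a non-targeting shRNA (CT), and KDnuc, KDut and KDtr are from a stable line with an shRNA against CGGBP1 (KD), a protein that binds CGG repeats. Control DNA and carrier DNA were folded in the test tube and added to the lysate in CTut and KDut, and were transfected into the cells in CTtr and KDtr, and CTnuc and KDnuc had neither. CTnuc and KDnuc share a pooled input and come from an Ion Torrent S5 instrument, the other lists from a MinION, so platform and AbC G4-ChIP variant cannot be told apart. The peak lists carry no read counts, and read numbers from other sources were not used here, so no counting error is given for a fold.

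G-quadruplexes are 4-stranded structures in which planes of 4 guanines stack on each other around a potassium ion. Several runs of guanines on 1 strand, joined by short loops, give the textbook signature of an intramolecular quadruplex. Such sequences are dense at promoters, at telomeres and in ribosomal DNA. They also occur in interspersed repeats: full-length LINE-1 retrotransposons carry a G-rich polypurine tract near their 3′ end.

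The signatures themselves were varied. The merged regions held 2702 signature sites with 1547 different sequences, of which 1327 (85.8%) were found in 1 region only and 12 in 10 or more regions. The 5 sequences found in the most regions are shown first because they recur across chromosomes. They are given on the strand that carries the guanines, and capitals mark runs of 3 or more guanines.
tract in 164 regions: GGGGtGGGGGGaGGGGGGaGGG
tract in 111 regions: GGGaGGGaGGGaGGG
tract in 27 regions: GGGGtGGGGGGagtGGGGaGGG
tract in 17 regions: GGGaaGGGaaGGGaaGGG
tract in 16 regions: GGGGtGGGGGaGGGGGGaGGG
The first of these was present at 166 sites on 21 of the 22 autosomes, and signature peaks of all 9 lists held it. One copy lies at chr1:41552358-41552379 on the minus strand. The 20 bases before it were the same at 65 of the 166 sites and the 20 bases after it at 50. Its letters are those of the LINE-1 polypurine tract. No repeat annotation was used here, so the name LINE-1 type below refers to letters only: a stretch within 3 mismatches of this 22-base tract, at the signature or within 10 bases of it. The tracts in 27 and 16 regions are variants of it. The autosomes hold 6209 exact copies, and the 166 in signature peaks were 2.67% of them.

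The tracts in 111 and 17 regions consist of guanine and adenine only. The GGGA repeat was found at 142 sites in all 9 lists, with 1 copy at chr1:29133668-29133682 on the plus strand, and the GGGAA repeat at 21 sites that were all in G4 DNA-IPdenat. Flanks of the GGGA repeat were rarely shared, with the commonest 20 bases before it present at 5 of the 142 sites. Signature sites were therefore sorted into 4 kinds: LINE-1 type (685 of 2702 sites, 25.4%), telomere type (holding GGGTTAGGG, 162 sites, 6.00%), guanine and adenine only (402 sites, 14.9%) and all others (1453 sites, 53.8%). On the autosomes as a whole, outside 1 kb of protein-coding starts, the same 4 kinds made up 7.65%, 0.833%, 8.33% and 83.2% of 315186 signatures. The kinds were set after the commonest sequences of these regions were seen, so this comparison is no test of enrichment.

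Members at which fold was highest, which had signature peaks in every list, or which repeat within a gene named below, are shown next, with 10 flanking bases where the reference has them. Capitals here mark the guanine runs of the signature itself, and the flanks are in lower case. Coordinates are hg38 and genes are those of GENCODE version 44, with ribosomal RNA genes from RefSeq on GRCh38.p14.
LINC00486 intron, chr2:32916558-32916625, plus strand: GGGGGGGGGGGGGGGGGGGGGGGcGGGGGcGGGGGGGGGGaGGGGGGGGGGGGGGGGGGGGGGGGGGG
ROCK1P1 intron, chr18:111856-111893, plus strand: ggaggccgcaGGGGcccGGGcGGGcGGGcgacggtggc
RNA45SN2, chr21:8209472-8209516, minus strand: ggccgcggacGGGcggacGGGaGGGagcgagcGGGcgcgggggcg
MTCO2P12 exon, chr1:633421-633474, minus strand: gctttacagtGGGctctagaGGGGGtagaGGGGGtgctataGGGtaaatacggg
5S array, chr1:228609133-228609176, plus strand: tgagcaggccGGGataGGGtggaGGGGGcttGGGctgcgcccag
beyond RNA45SN2, chr21:8220179-8220213, minus strand: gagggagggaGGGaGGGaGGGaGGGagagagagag
chromosome 22 intergenic, chr22:12175694-12175737, minus strand: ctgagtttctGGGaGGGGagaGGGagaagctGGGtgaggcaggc
EXD3 intron, chr9:137328618-137328670, plus strand: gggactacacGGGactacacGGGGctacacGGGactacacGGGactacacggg
CCDC200 intron, chr17:43239229-43239278, plus strand: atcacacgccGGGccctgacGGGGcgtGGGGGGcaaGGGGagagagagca

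The first question was how common the signature was in each kind of pulldown. G4 DNA-IPnat had 30 signature peaks among 222 off-promoter peaks (13.5%, exact Clopper-Pearson 95% interval 9.31 to 18.7%), G4 DNA-IPdenat 1142 of 13819 (8.26%, 7.81 to 8.74%) and G4-ChIP 121 of 1406 (8.61%, 7.19 to 10.2%). CTnuc had 188 of 3711 (5.07%, 4.38 to 5.82%) and KDnuc 340 of 7288 (4.67%, 4.19 to 5.17%). The lists with Control DNA in the lysate had 293 of 3354 in CTut (8.74%, 7.80 to 9.74%) and 317 of 2844 in KDut (11.1%, 10.0 to 12.4%), and those from transfected cells 253 of 2322 in CTtr (10.9%, 9.66 to 12.2%) and 211 of 2332 in KDtr (9.05%, 7.91 to 10.3%). The intervals cover counting error only. CTnuc and KDnuc were lowest, with intervals below those of every other list. Of the 305 peaks within 1 kb of a protein-coding start, 55 (18.0%) held a signature, a larger share than off promoters. Of all 2950 autosomal signature peaks 98.1% were off promoters, against 99.2% of all autosomal peaks. The member nearest to the limit lay 1006 bp from a start of OLFML2B in KDut, with a fold of 3.32 and 0.602 signatures per kb, and the nearest peak left out lay 935 bp from a start of LMO7 in CTtr, with a fold of 3.30 and 1.15 signatures per kb.

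A share of peaks depends on how long the peaks are, so the signatures were also counted per kb over all off-promoter peaks of a list, with or without a signature. Away from promoters the autosomes hold 0.117 signatures per kb of known sequence. G4 DNA-IPnat held 0.199 signatures per kb. The other 8 lists held fewer than the autosomes: 0.0553 in G4 DNA-IPdenat, 0.0705 in G4-ChIP, 0.0658 in CTnuc, 0.0639 in KDnuc, 0.0594 in CTut, 0.0671 in KDut, 0.0741 in CTtr and 0.0844 in KDtr. Of the 133 signatures of G4 DNA-IPnat, 81 were on chromosome 21. Without chromosomes 21 and 22 it held 0.0872 signatures per kb, and all 9 lists were then below the autosomal density (0.0469 to 0.0872). This comparison with the autosomes was not tested.

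**Figure D1:**
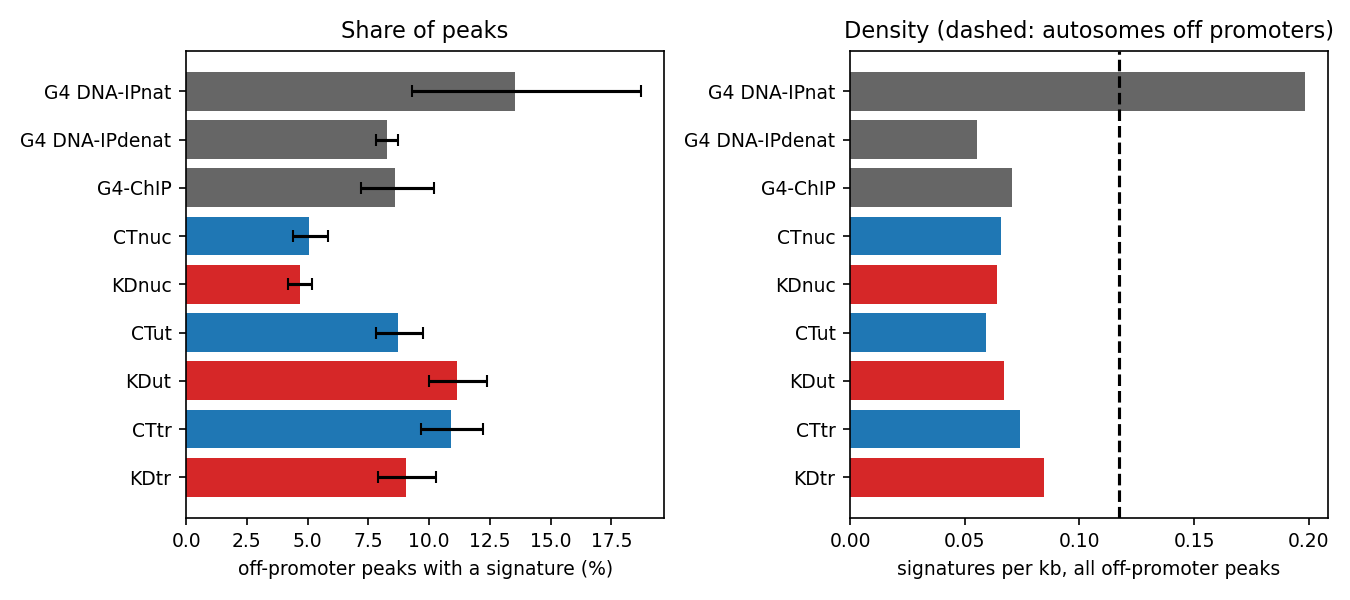
Left, percent of off-promoter autosomal peaks with a signature in each list, with exact 95% intervals as error bars. Right, signatures per kb over all off-promoter peaks, with the density of the autosomes outside 1 kb of protein-coding starts as a dashed line at 0.117. Grey bars are the DNA-IP and G4-ChIP lists, blue bars CT and red bars KD, and the bar of G4 DNA-IPnat is the only one past the line.

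Most signature peaks held a single signature: 2153 of 2895 (74.4%). The share with 1 signature ran from 40% in G4 DNA-IPnat to 86.6% in G4 DNA-IPdenat, and was 71.9% in G4-ChIP, 63.8% in CTnuc, 73.5% in KDnuc, 66.2% in CTut, 68.1% in KDut, 61.3% in CTtr and 61.6% in KDtr. The median density was 0.845 signatures per kb in G4 DNA-IPnat, against 0.442 in G4 DNA-IPdenat and 0.407 in G4-ChIP. It was 0.766 in CTnuc and 0.861 in KDnuc, and lower in the other AbC G4-ChIP lists, at 0.269 in CTut, 0.282 in KDut, 0.276 in CTtr and 0.386 in KDtr. Those lists also had the longest signature peaks: median lengths were 6087, 5317, 5240 and 4226 bp in CTut, KDut, CTtr and KDtr, against 1873 bp in CTnuc, 1448 bp in KDnuc, 2447 bp for G4 DNA-IPnat, 2600 bp for G4 DNA-IPdenat and 3133 bp for G4-ChIP. Lengths over all signature peaks ran from 308 to 218406 bp. Signature peaks were longer than other off-promoter peaks in every list (medians of the others 920 to 1882 bp). In the median signature peak the signatures covered between 0.628% of the bases (CTtr) and 2.11% (G4 DNA-IPnat).

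The densest peaks were telomere-type sequence at chromosome ends. Among signature peaks of at least 500 bp, the 5 with the most signatures per kb were chr1:248945709-248946246 in G4-ChIP (22 signatures, 40.9 per kb, fold 10.8), chr3:10028-10776 in KDtr (28 signatures, 37.4 per kb, fold 7.85), chr3:10078-10777 in CTtr (26 signatures, 37.1 per kb, fold 6.11), chr12:9960-10573 in G4 DNA-IPdenat (22 signatures, 35.8 per kb, fold 8.95) and chr1:248945611-248946452 in CTtr (30 signatures, 35.6 per kb, fold 12.2). All 5 are intergenic and lie at the edge of the known sequence of their chromosome. At the end of chromosome 1, 5 other lists had a peak over the G4-ChIP peak. Telomere-type signatures were found in 45 signature peaks, of which 40% lay within 5 Mb of a chromosome end. They made up 16.0% of the signatures in G4-ChIP, 12.8% in G4 DNA-IPnat, 10.8% in CTtr, 11.3% in KDtr, 4.80% in CTut, 4.47% in KDut and 6.70% in G4 DNA-IPdenat. In CTnuc and KDnuc they made up 0.293% and 0.812%, that is 1 and 5 signatures, close to the 0.833% of the autosomes.

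The fold of each peak, the enrichment value that MACS2 wrote, was next compared between signature peaks and the other off-promoter peaks of the same list. G4 DNA-IPdenat and all AbC G4-ChIP lists were called without a local background, so their folds are not set against the input around each peak. Median fold of signature peaks against others was 6.11 against 5.83 for G4 DNA-IPnat, 4.84 against 4.64 in G4 DNA-IPdenat, 4.64 against 4.61 in G4-ChIP, 5.72 against 5.20 in CTnuc and 4.90 against 4.70 in KDnuc. It was 3.63 against 4.11 in CTut, 3.76 against 3.71 in KDut, 3.68 against 3.76 in CTtr and 4.30 against 4.20 in KDtr. Signature peaks had the higher median in 7 of 9 lists, but the mean log2 ratio was 0.02 ± 0.09 (SD over 9 lists) and did not differ from 0 (two-sided exact sign-flip permutation test over the 9 lists, p = 0.523, adjusted p = 0.523). A sign-flip test asks how often the mean of the 9 differences would be as far from 0 if the sign of each were reversed in every possible way, and adjusted p-values are Benjamini-Hochberg values over the 6 such tests of this report. The lists overlap in the regions they hold and some share an input, so these p-values treat as separate 9 lists that are not fully independent. Without CTut, the list with the clearest lower fold, the mean log2 ratio was 0.04 (p = 0.0391, exact sign-flip permutation, n = 8 lists).

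**Figure D2:**
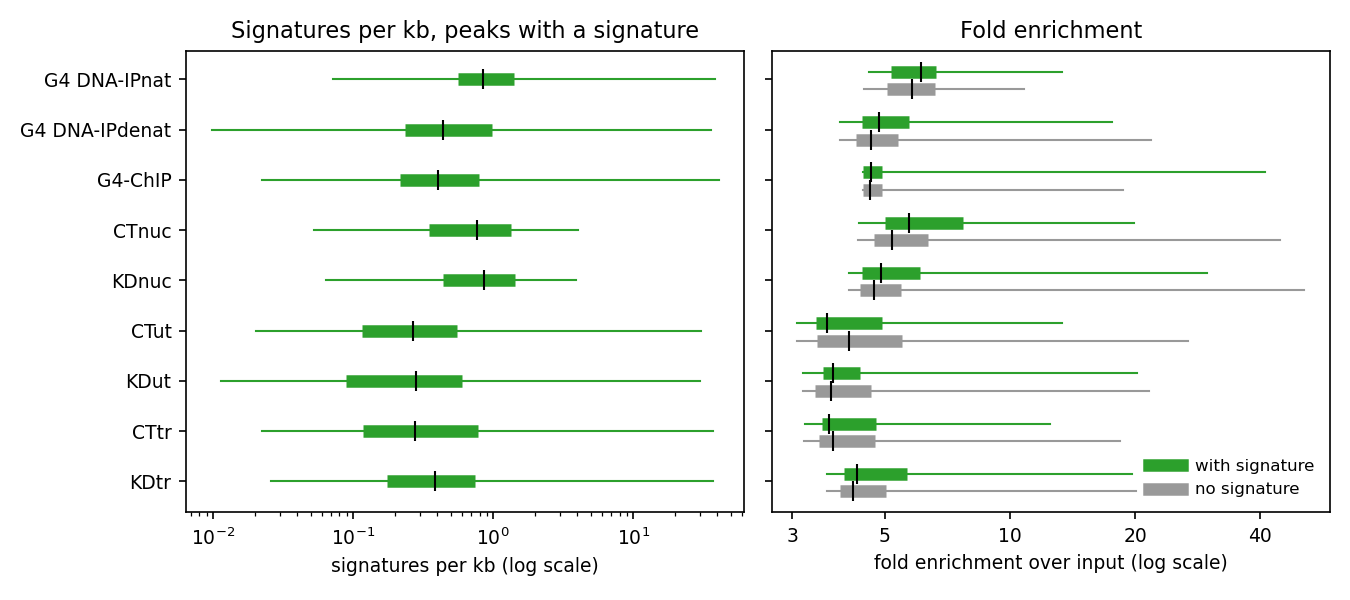
Left, signatures per kb of the signature peaks in each list. Right, fold enrichment as MACS2 wrote it, of signature peaks (green) and other off-promoter peaks (grey). Thin lines run from the lowest to the highest peak, thick bars from the first to the third quartile, ticks mark medians and both horizontal axes are logarithmic. The fold bars of the 2 kinds of peak overlap in every list.

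In G4 DNA-IPnat and in G4-ChIP the signature peak with the highest fold was the same site, an intron of the long noncoding RNA gene LINC00486 on chromosome 2 (fold 13.3 at chr2:32916312-32916719 and 41.1 at chr2:32916266-32916776). The sequence shown for it is almost pure guanine and borders a gap of unknown bases, and 7 of the 9 lists had a peak there, all but CTnuc and KDnuc. In KDnuc the highest fold was 29.7 at chr18:109194-112527, in the ROCK1 pseudogene ROCK1P1 near the end of chromosome 18, where all 9 lists had a peak. Stretches at or between the 45S ribosomal RNA genes of chromosome 21 gave the highest fold in 3 lists: 17.6 in G4 DNA-IPdenat at chr21:8219409-8227631, beyond the end of RNA45SN2 with 10 signatures, 19.9 in CTnuc at chr21:8420817-8423558 with 2, and 13.3 in CTut at chr21:8209459-8211604 with 1, which overlaps RNA45SN2 and RNA18SN2. In the remaining 3 lists it was a nuclear copy of mitochondrial DNA at the start of chromosome 1, with folds of 20.3 in KDut (chr1:628741-635059), 12.5 in CTtr (chr1:628936-634916) and 19.7 in KDtr (chr1:628972-634926). Each of those peaks spans 5955 to 6319 bp of mitochondrial pseudogenes with 1 signature, in the pseudogene MTCO2P12. The reference to which the authors aligned left out the mitochondrial genome, and whether these reads came from the nuclear copy was not tested.

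Signature peaks lay in genes more often than other off-promoter peaks. The percent outside every annotated gene was lower for signature peaks in all 9 lists: 53.3% against 92.2% in G4 DNA-IPnat, 45.2% against 53.4% in G4 DNA-IPdenat, 47.9% against 60.3% in G4-ChIP, 42.6% against 81.8% in CTnuc and 39.4% against 72.9% in KDnuc. It was 46.4% against 81.6% in CTut, 46.1% against 69.8% in KDut, 45.8% against 77.6% in CTtr and 41.7% against 71.2% in KDtr. The mean difference was -28.0 ± 11.2 percentage points (SD, n = 9 lists; two-sided exact sign-flip permutation test, p = 0.00391, the smallest that 9 lists can give, adjusted p = 0.0117). Within quartiles of peak length the mean difference was -26.6 percentage points. Among all signatures on the autosomes away from promoters, 34.7% are intergenic, and 39.0% of the bases are. Both kinds of peak were over the autosomal share of signatures in every list, and signature peaks (39.4% to 53.3%) were nearer to it. The measures differ, since a signature was scored at its midpoint and a peak was intergenic only if none of its bases touched a gene. Because the rule requires a signature, the test cannot separate the placement of signatures from a property of the captured peaks.

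The genes concerned were mostly noncoding in the AbC G4-ChIP lists and mostly coding in denatured DNA. Peaks were assigned in a fixed order: exon of a protein-coding gene, its intron, exon of a noncoding gene, its intron, no gene. In all counts below, a peak that overlapped a protein-coding gene was therefore not counted under noncoding genes, even where it touched a noncoding exon. Exons of noncoding genes were touched by 34.0% of signature peaks in CTnuc against 3.75% of other peaks, 24.4% against 3.80% in KDnuc, 26.6% against 4.12% in CTut, 22.7% against 4.87% in KDut, 25.3% against 4.64% in CTtr, 29.4% against 4.67% in KDtr, 26.7% against 3.12% in G4 DNA-IPnat and 13.2% against 4.51% in G4-ChIP. In G4 DNA-IPdenat it was 1.93% against 0.528%, and 34.7% of its signature peaks lay in introns of protein-coding genes against 30.7% of its others. Over all lists 77 signature peaks touched an exon of a protein-coding gene, 615 an intron of one without an exon, 469 an exon of a noncoding gene, 444 an intron of a noncoding gene, and 1290 no gene. Signature peaks had a shorter median distance to the nearest protein-coding start than other off-promoter peaks in every list, from 72258 bp against 109324 bp in G4 DNA-IPdenat to 426802 bp against 1023027 bp in G4 DNA-IPnat.

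Signature peaks were also more often close to a chromosome end. The percent with an edge within 5 Mb of an end was 6.67% against 4.17% for other off-promoter peaks in G4 DNA-IPnat, 4.99% against 3.66% in G4 DNA-IPdenat, 3.31% against 1.17% in G4-ChIP, 7.45% against 1.19% in CTnuc and 10.6% against 1.86% in KDnuc. It was 7.51% against 1.99% in CTut, 5.99% against 2.22% in KDut, 7.11% against 2.46% in CTtr and 9.48% against 2.26% in KDtr. All 9 differences were positive, with a mean of 4.68 ± 2.48 percentage points (SD, n = 9 lists; two-sided exact sign-flip permutation test, p = 0.00391, adjusted p = 0.0117). Of all autosomal signatures away from promoters, 18.6% lie within 5 Mb of an end, which was above the share of signature peaks in every list. Of the bases, 6.86% lie there, so signatures as such are denser near the ends. Signature peaks were chosen for holding a signature, so the test cannot separate this placement of signatures from a property of the captured peaks.

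Certain chromosomes held many of the signature peaks. Chromosome 13 held 646 of 2895 (22.3%, against 19.2% of the other off-promoter peaks), chromosome 1 held 408 (14.1% against 11.4%), chromosome 21 held 249 (8.60% against 2.48%) and chromosome 9 held 190 (6.56% against 5.07%). On chromosome 13 the share was highest in G4-ChIP, at 48.8% of signature peaks, and lowest in G4 DNA-IPnat, with no signature peak. It was 45.7% in KDut, 39.9% in CTtr, 34.6% in KDtr, 34.1% in CTut, 18.5% in KDnuc, 16.0% in CTnuc and 6.57% in G4 DNA-IPdenat. Other off-promoter peaks lay there in 0.521% (G4 DNA-IPnat) to 48.4% (G4-ChIP), a smaller share than of signature peaks in 5 lists and a larger one in 4. Chromosomes 21 and 22 together held a larger share of the signature peaks than of the others in every list, from 5.52% against 2.94% in G4 DNA-IPdenat to 46.7% against 10.4% in G4 DNA-IPnat.

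Signature peaks overlapped peaks of other lists more often than peaks without a signature did, but not within classes of peak length. Overlap of 1 bp or more with a peak of another list was found for 30 of 30 signature peaks of G4 DNA-IPnat (100% of all its off-promoter peaks), 119 of 1142 in G4 DNA-IPdenat (10.4%, against 14.9% of all its off-promoter peaks) and 88 of 121 in G4-ChIP (72.7% against 61.2%). It was found for 186 of 188 in CTnuc (98.9% against 87.6%), 231 of 340 in KDnuc (67.9% against 59.3%), 272 of 293 in CTut (92.8% against 84%), 268 of 317 in KDut (84.5% against 73.7%), 237 of 253 in CTtr (93.7% against 92.9%) and 197 of 211 in KDtr (93.4% against 88.3%). Set against peaks without a signature, the mean difference was 6.37 ± 6.32 percentage points (SD, n = 9 lists; two-sided exact sign-flip permutation test, p = 0.0234, adjusted p = 0.0352), higher in 7 lists, lower in G4 DNA-IPdenat and equal in G4 DNA-IPnat. Within quartiles of peak length the mean difference was -0.454 percentage points (exact sign-flip permutation p = 0.688).

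Lists differed widely in what they shared. All 30 signature peaks of G4 DNA-IPnat overlapped a peak of CTut, KDut, CTtr and KDtr, 27 of 30 (90.0%) overlapped G4 DNA-IPdenat and 25 of 30 (83.3%) each of CTnuc and KDnuc. Its peaks without a signature overlapped the first 5 of these lists in 93.8% to 99.5%, CTnuc in 50.5% and KDnuc in 59.9%. Of the signature peaks of G4 DNA-IPdenat, between 2.54% (G4 DNA-IPnat) and 8.67% (CTut) overlapped any single other list, and of its peaks without a signature 1.30% to 11.5%, so low overlap was a trait of the whole list. Of the signature peaks of CTnuc, 90.4% overlapped KDnuc, whereas 50.3% of those of KDnuc, which has more peaks, overlapped CTnuc (71.0% and 34.3% of peaks without a signature). Among the 4 lists CTut, KDut, CTtr and KDtr the shares ran from 73.7% (CTut in KDtr) to 90.1% (CTtr in KDut). For their peaks without a signature they ran from 43.9% (CTut in KDtr) to 79.7% (CTtr in CTut). G4-ChIP overlapped these 4 lists with 61.2% to 68.6% of its signature peaks, CTnuc with 44.6% and KDnuc with 51.2%. Its peaks without a signature did so in 45.1% to 52.6%, 22.9% and 33.9%. None of these shares was matched on peak length.

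Of the 1655 merged regions, 1373 (83.0%) held signature peaks of 1 list and 9 held signature peaks of all 9. Counting any peak, 1267 (76.6%) had peaks of 1 list and 19 (1.15%) of all 9, against 83.1% and 0.356% of the 21044 merged regions of all off-promoter peaks, which were not matched on length. Of the 1373 regions with signature peaks of 1 list, G4 DNA-IPdenat accounted for 1046 (76.2%), KDnuc for 126, KDut for 68, CTut for 55, G4-ChIP for 35, CTtr for 21, KDtr for 17, CTnuc for 5 and G4 DNA-IPnat for none. G4 DNA-IPdenat also held 13819 of the 37298 off-promoter peaks, of which 14.9% overlapped another list. The same split over all off-promoter regions is not given here, so these counts show no trait of signature peaks. Median region length was 2084 bp for regions of 1 list and 31163 bp for those of 9, and the median fold was 4.60 for 1 list, 3.87 for 3 and 7.24 for 9.

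Of the 9 regions with signature peaks of every list, 3 lay in the neighbourhoods on chromosome 21 of the 45S ribosomal RNA genes, whose transcripts are cut into 18S, 5.8S and 28S rRNA: chr21:8398191-8438885, which overlaps RNA45SN3 and RNA45SN1 (34 signature peaks, 42 signature sites, fold 4.31 to 20.4), chr21:8215122-8252433, which overlaps RNA45SN2 (27 peaks, 39 sites, fold 4.85 to 25.4), and chr21:8441136-8472298, which overlaps RNA45SN1 (29 peaks, 35 sites, fold 3.92 to 24.3). The GGGA repeat shown beyond RNA45SN2 recurred at 5 of the 39 sites of the second. On chromosome 1 the array of 17 RNA5S genes, which encode the 5S rRNA, at chr1:228608443-228646466 held 56 signature peaks and 100 sites, 2.63 per kb, at folds of 3.63 to 8.22. Its sites lay evenly on both strands (51 and 49), 17 carried the sequence shown for it, and on the plus strand 15 of 50 gaps between sites were 293 bp. On chromosome 8 there were 2 stretches with pseudogenes of the REXO1L family, chr8:85714294-85779568 with 36 signature peaks and 24 sites and chr8:85645331-85663949 with 11 peaks and 7 sites, at folds of 4.34 to 11.8 and 4.78 to 11.5. The other 3 were intergenic: chr21:9246062-9262044 with a single LINE-1-type site, and chr22:12173493-12180705 and chr22:11813173-11818172 with 3 sites each, whose shown site has the same sequence in both. The longest of the 8 regions with signature peaks of 8 lists was chr13:61963010-62192075 over LINC00358, with 31 signature peaks at folds of 3.55 to 5.87 and 10 sites, or 0.0437 per kb.

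The 30 signature peaks of G4 DNA-IPnat, whose purified DNA was not heat-denatured, were spread over 9 chromosomes. They lay in 23 merged regions and included 11 on chromosome 21, 6 on chromosome 1, 4 on chromosome 4, at chr4:49290732-49514347, and 3 on chromosome 22. Folds ran from 4.59 at chr19:37294682-37295763 to 13.3 at LINC00486, and the next highest were 8.68 at chr17:21968647-21969684 and 8.27 at the telomere-type end of chromosome 1. None lay in a protein-coding gene, where 0.521% (exons) and 2.08% (introns) of the other off-promoter peaks of G4 DNA-IPnat lay, and the nearest protein-coding start was 17074 bp away.

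A LINE-1-type signature was held by 574 of 1142 signature peaks of G4 DNA-IPdenat (50.3%), against 10.0% in G4 DNA-IPnat, 16.5% in G4-ChIP, 10.6% in CTnuc, 12.4% in KDnuc, 18.8% in CTut, 22.4% in KDut, 19.0% in CTtr and 19.9% in KDtr. Guanine and adenine repeats were held by 219 (19.2%, against 5.85% to 16.7% in the other lists). Counted as signatures, the LINE-1 type made up 36.5% in G4 DNA-IPdenat and 3.76% to 11.6% elsewhere, against 7.65% on the autosomes. Signatures of none of the 3 named kinds made up 35.7% in G4 DNA-IPdenat. The 1023 signature peaks of G4 DNA-IPdenat in no other list held it in 51.1% and the 119 shared ones in 42.9%. G4 DNA-IPdenat is a single library, so the difference from the other lists has no replicate check. The tract that defines the LINE-1 type was also picked as the commonest of these merged regions. G4 DNA-IPdenat had signature peaks in 1121 of the 1655, so a high share in this list was favoured by that choice.

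The signatures of G4 DNA-IPdenat also lay at another place in the peak. Position was measured as the distance of the signatures from the peak centre, from 0 at the centre to 1 as far out as a signature can lie, so that even placement gives 0.5. The mean was 0.606 in G4 DNA-IPdenat, 0.451 in CTnuc, 0.472 in KDnuc, 0.474 in G4-ChIP, and between 0.512 and 0.529 in the other 5 lists. Over the 9 lists the deviation from 0.5 was 0.0116 ± 0.0451 (SD; two-sided exact sign-flip permutation test, p = 0.508, adjusted p = 0.523), so the lists as a group showed no shift. In G4 DNA-IPdenat, 408 of 1142 signature peaks (35.7%) had their signatures in the outermost of 5 equal steps, against 11.7% to 19.8% in the other lists.

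Read along the strand that carries the guanines, the shift in G4 DNA-IPdenat had a direction. Of its 584 LINE-1-type signatures, 52.1% lay in the 20% of the peak at the 3′ side and 8.22% in the 20% at the 5′ side, with a mean position of 0.711 where 0 is the 5′ edge and 1 the 3′ edge. The other 8 lists together had 371 such signatures, with 17.5% at the 3′ side, 21.8% at the 5′ side and a mean of 0.474. The median distance from the end of the signature to the 3′ edge of the peak was 360.5 bp in G4 DNA-IPdenat and 2511 bp in the other lists, where peaks are of other lengths. Guanine and adenine repeats of G4 DNA-IPdenat showed no such place (15.4% at the 3′ side, 17.5% at the 5′ side), and its other signatures did (38.1% and 12.6%). In LINE-1 elements the polypurine tract lies near the 3′ end. Element boundaries were not annotated here.

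**Figure D3:**
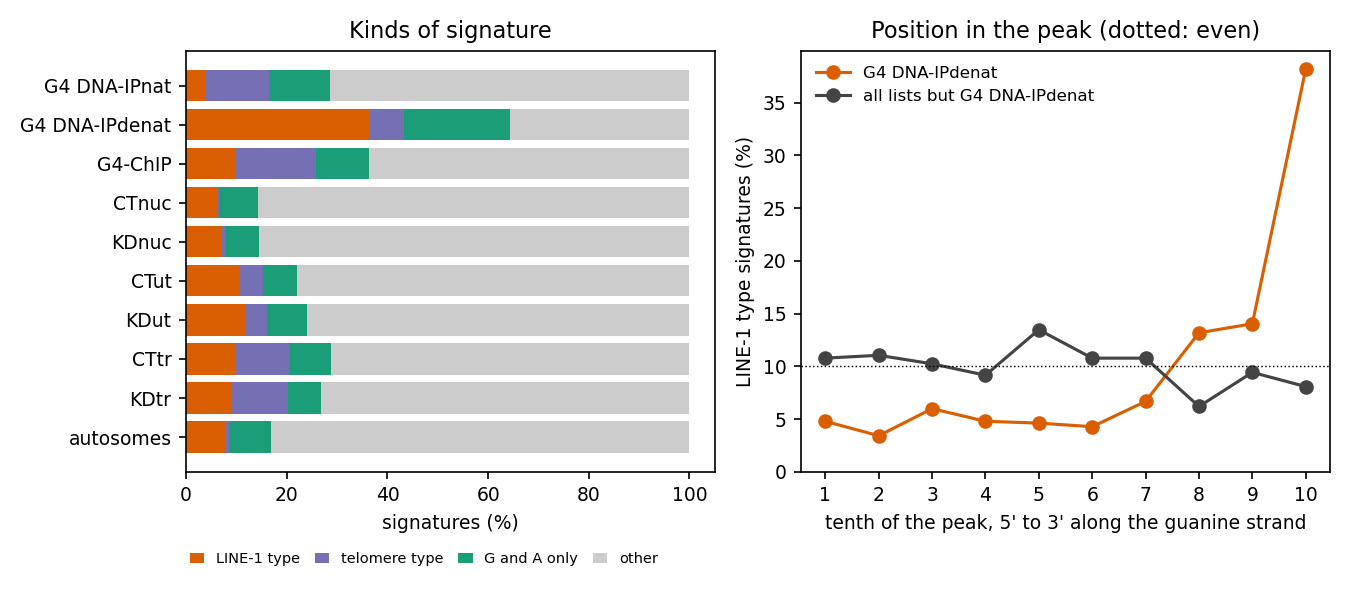
Left, percent of signatures of each kind in the signature peaks of each list and on the autosomes away from promoters. Right, percent of LINE-1-type signatures in 10 equal steps of the peak, from the 5′ to the 3′ edge along the guanine strand, in G4 DNA-IPdenat (584 signatures) and in the other 8 lists together (371), with even placement dotted. In G4 DNA-IPdenat 38.2% lay in the last step, against 8.09% in the other lists.

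Signatures inside introns were mostly on the template strand. In signature peaks that lay in introns of protein-coding genes on a single strand, the guanines were on the coding strand, that of the mRNA, for 124 of 461 signatures in G4 DNA-IPdenat (26.9%), 4 of 11 in CTnuc (36.4%), 19 of 55 in KDnuc (34.5%), 14 of 56 in CTut (25%), 26 of 84 in KDut (31.0%), 14 of 35 in CTtr (40%) and 17 of 55 in KDtr (30.9%). G4-ChIP was the exception, with 20 of 33 (60.6%), and G4 DNA-IPnat had none to count. Set against an even split, the mean difference was -14.3 ± 11.2 percentage points (SD, n = 8 lists; two-sided exact sign-flip permutation test, p = 0.0234, adjusted p = 0.0352). Every unit of a tandem repeat was counted in these numbers. The repeat in EXD3, with 21 sites of which 0 were on the coding strand, entered 4 of the lists (CTut, KDut, CTtr and KDtr). The test was not repeated without it, so these lists do not give separate evidence of a strand difference. Separate sites were also counted, over whole merged regions that held such a peak. A site there did not have to lie in the intronic peak itself, and units of a tandem repeat again counted singly. On the coding strand were 52 of 214 LINE-1-type sites (24.3%), 26 of 97 guanine and adenine sites (26.8%) and 111 of 322 other sites (34.5%). Of telomere-type sites, 34 of 37 (91.9%) were. Among all intronic signatures of the autosomes, each scored at its own midpoint, the shares were 38.1%, 33.5%, 50.7% and 53.2%, and 48.6% over all kinds. The measures therefore differ.

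In all, 485 protein-coding genes held a signature peak, of which 440 did so in 1 list, 24 in 2 lists and 21 in 3 or more. Peaks without a signature are not given per gene here, so these counts do not show that a gene is rich in signatures. PCDH9, a protocadherin of neuronal cell adhesion on chromosome 13, led with 68 signature peaks from 8 lists. Their median density was 0.098 signatures per kb, under the 0.117 of the autosomes away from promoters. Chromosome 13 also held 19.2% of the other off-promoter peaks. It had 3 in G4 DNA-IPdenat (median fold 4.73), 5 in G4-ChIP (4.61), 2 in CTnuc (4.91), 4 in KDnuc (4.81), 17 in CTut (3.49), 13 in KDut (3.78), 13 in CTtr (3.66) and 11 in KDtr (4.21). These folds are lower in the 4 MinION AbC G4-ChIP lists, as are the median folds of all their signature peaks (3.63 to 4.30, against 4.64 to 6.11 in the other lists). In the same 4 lists the PCDH9 peaks add up to 98595 to 326576 bp, against 6263 to 21937 bp in the other lists that have them. The 68 peaks merged into 11 regions with 27 signature sites in the gene, 11 of them on its coding strand and 4 of the LINE-1 type, such as the one at chr13:66743345-66743366 on the plus strand, which has the letters of the tract in 164 regions. Of its signature peaks 3 touched an exon.

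The other genes with signature peaks from several lists were of many kinds. CCDC200, which encodes a coiled-coil protein, had 22 peaks from 7 lists at folds of 4.31 to 8.73, all intronic, with 2 of 15 sites on its coding strand and the sequence shown for it at 8 of the 15. TLE4, a transcriptional corepressor of the Groucho family, had 16 peaks from the 6 AbC G4-ChIP lists (fold 3.31 to 4.66), and CROCC, which encodes the ciliary rootlet protein rootletin, 11 from the same 6 (3.13 to 5.45). RASA4B, a Ras GTPase-activating protein in a duplicated stretch of chromosome 7, had 9 peaks in KDnuc, KDut, CTtr and KDtr, and 19 sites. The neighbouring or overlapping ENSG00000267645, ENSG00000205236 and UPK3BL1 on the same chromosome had 5, 4 and 3 peaks, which share sites with each other. EXD3, an exonuclease-domain gene near the end of chromosome 9, had the densest intronic members: 1 peak in each of CTut, KDut, CTtr and KDtr, with a median of 9.53 signatures per kb and folds of 5.29 to 7.86. Its 21 sites all lay on the strand opposite to the coding strand, in the tandem repeat shown, and 7 of the 20 gaps between them were 40 bp.

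Several of the remaining genes lie on chromosome 13, as PCDH9 does. GPC5 and GPC6, cell-surface heparan sulfate proteoglycans, had 8 and 4 signature peaks from 4 lists each. KLHL1 and UCHL3, the second a ubiquitin hydrolase, had 4 peaks from 4 lists each, and DACH1, a transcription factor, 4 from 3 lists. Elsewhere, DNAH14, an axonemal dynein heavy chain, had 8 peaks from 4 lists (fold 3.14 to 5.97), 4 of its 8 sites being of the LINE-1 type. NBPF1 had 6 from CTut, KDut, CTtr and KDtr, all touching an exon. FANK1 and KATNAL2, the second a katanin-like gene, had 4 from 4 lists each. The zinc-finger genes ZNF717 and ZNF595 had 4 and 3 from 3 lists each, those of ZNF595 in the 3 CT lists, with a peak of at least 1 KD list over the same merged region, and THOC3, of the THO complex in mRNA export, had 3 from 3 lists. The muscarinic receptor gene CHRM3, the AMPA receptor partner CNIH3, the collagen gene COL24A1 and the carbohydrate kinase gene FGGY each had 3 peaks, from G4 DNA-IPdenat and 1 other list.

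The last question was whether CGGBP1 knockdown changed these peaks. The 3 pairs KDnuc and CTnuc, KDut and CTut, and KDtr and CTtr allow no two-sided exact sign-flip permutation p below 0.25, so no comparison here could pass 0.05. The percent of off-promoter peaks with the signature moved by -0.401 percentage points in nuc, 2.41 in ut and -1.85 in tr (mean 0.0540 ± 2.17, SD, n = 3 pairs, exact permutation p = 1). The median signatures per kb of signature peaks was higher in KD in 3 of 3 pairs, by 0.095 in nuc, 0.0124 in ut and 0.110 in tr (mean 0.0726 ± 0.0527, exact permutation p = 0.25, adjusted p = 0.5 over 4 tests). The median fold of signature peaks changed by -0.827 in nuc, 0.133 in ut and 0.619 in tr (mean -0.0248 ± 0.736, exact permutation p = 1).

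The share of signature peaks that overlapped G4 DNA-IPdenat was lower in KD in 3 of 3 pairs: 22.4% against 35.6% in nuc, 38.8% against 41.6% in ut and 39.8% against 41.1% in tr (mean -5.81 ± 6.52 percentage points, n = 3 pairs, exact permutation p = 0.25, adjusted p = 0.5). LINE-1-type signatures were held by a larger share of KD than of CT signature peaks in each pair (12.4% in KDnuc and 10.6% in CTnuc, 22.4% in KDut and 18.8% in CTut, 19.9% in KDtr and 19.0% in CTtr), a difference that was not tested. At the level of regions, 594 of the 1655 merged regions had a peak of any AbC G4-ChIP list (35.9%, against 41.4% of all merged off-promoter regions). A peak in any KD list and no CT list was found in 191 (11.5% of 1655, against 20.5% of the 21044 merged regions of all off-promoter peaks) and in any CT list and no KD list in 51 (3.08% against 7.33%). KD-only regions thus outnumbered CT-only regions among all off-promoter regions as well. No merged region had peaks in all 3 CT lists and no KD list, or the reverse, against 0.0238% and 0.0143% of all merged off-promoter regions (5 and 3 regions). Peaks of all 6 lists were found in 177 regions (10.7% against 2.49%), and signature peaks of all 6 in 48. None of these shares of regions was matched on length, and signature peaks were the longer ones in every list.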

How the data were processed

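The peaks of 9 libraries were analysed from the deposited broad-peak lists, and the 7 inputs were not analysed here. The authors kept uniquely aligned reads on hg38 without chromosome Y, the mitochondrial genome and unplaced sequences. They aligned with minimap2 (bowtie2 is also named for Ion Torrent reads) and called peaks with MACS2 against input, where G4 DNA-IPdenat and all AbC G4-ChIP lists used a wider bandwidth and skipped the local lambda. Versions are not given in the sources used here. The fold of a peak is the MACS2 enrichment value, as deposited by the authors. In lists called without the local lambda it is not a ratio to the input around the peak. Its −log10 q value, as deposited, was used only for a filter. The fold carries no depth, and broad calling sets the peak lengths. Names of CTnuc and KDnuc peaks run to 10757 and 22266 for 3796 and 7753 listed peaks, so both lists may be partial.

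Signatures were counted as non-overlapping sets of 4 runs on both strands of the reference. Lists were the unit of every test, by exact sign-flip permutation, with knockdown and control paired by nuc, ut and tr as in the study's methods, since each pair was made in the same way. Shares have exact Clopper-Pearson intervals. Genes and regions named are, by rule, the signature peak with the highest fold in each list, 10 merged regions from the most lists, 5 densest peaks of at least 500 bp, regions of all CT or all KD lists only, 25 protein-coding genes with members from the most lists, and the 5 commonest signature sequences. Other loci shown or named, and the 4 kinds of signature, were chosen after their values were seen. Members and lists were chosen with earlier results of these data known. Functions were tested on simulated data. Tools were samtools 1.23.1 and Python 3.11.15 with pysam 0.24.0, scipy 1.17.1, pandas 2.3.3, numpy 2.4.6 and matplotlib 3.10.9. The sequence of 1 locus is not reported here.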

Additional observations from a re-analysis of the deposited data

Results flagged for a closer look

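The change with knockdown went in different directions in the 3 pairs for 2 measures, and the difference between pairs was not tested, since each pair is 1 library against 1. The percent of off-promoter peaks with a signature changed by -0.401 percentage points from CTnuc to KDnuc and by -1.85 from CTtr to KDtr, but by 2.41 from CTut to KDut. The median fold of signature peaks changed by -0.827 from CTnuc to KDnuc, and by 0.133 and 0.619 in the ut and tr pairs.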

How the results depend on the processing

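The lower intergenic share and the higher share near chromosome ends kept their direction and their side of 0.05 in all 18 alternatives each (leaving out each list in turn, -30.5 to -26.6 and 4.17 to 5.10 percentage points). Requiring −log10 q of at least 4 left 1212 signature peaks in 582 regions, and requiring the signature in the central 1000 bp left 1296 in 944. The sharing difference reversed within length quartiles (-0.454 percentage points) and for central signatures (-1.35). It missed 0.05 over 1 kb from any annotated start (4.56), at the stricter q (6.62), without chromosome 13 (5.05) and, added after seeing the data, without chromosomes 21 and 22 (5.14), and leaving out each list gave 5.58 to 7.77. The coding-strand difference missed 0.05 over 1 kb from any annotated start (-10.9), at the stricter q (-13.0) and for central signatures (-11.3), with -17.9 to -12.8 without each list. The log2 fold ratio, not called, turned negative with loops of 1 to 12 bases (-0.0100), over 1 kb from any annotated start (-0.0119) and without chromosomes 21 and 22 (-0.0200), and ran from 0.00483 to 0.0446 without each list, passing 0.05 without CTut. The position deviation, not called, was -0.201 for central signatures, where the window itself fixes the sign, and ran from -0.00026 to 0.0192 without each list, negative only without G4 DNA-IPdenat. For knockdown, leaving out each pair gave -1.12 to 1.00 percentage points for the share with a signature, 0.0537 to 0.103 for signatures per kb, -0.347 to 0.376 for fold and -8.06 to -2.07 percentage points for overlap with G4 DNA-IPdenat. Signatures per kb fell to -0.0496 at the stricter q, and fold was 0.0065 with loops of 1 to 12 bases. With no pairing, the exact permutation p of the 6 lists was 1, 0.5, 1 and 0.5, and the pairing changed no call. Where no cause is stated, the cause was not tested. Read depth was not used here, since the peak lists hold no read counts.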
